A study of Homo sapiens with 18 samples.

Results

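The regions described here are gene ends beyond which RNA polymerase II (Pol II) travels inside the bounds of another gene annotated on the same strand. That gene mostly begins upstream of the end. They were found with GENCODE 44 as the transcripts of the readthrough table whose position 100 nt beyond the last exon lies inside another protein-coding gene on the same strand. Of 1029 such transcripts, 98 were left out by symbol because they encode ribosomal proteins, zinc finger proteins, solute carriers, histones or mitochondrial products. The remaining 931 transcripts (7.13% of the 13051 in the table) come from 930 genes, with 859 neighbour genes at that position, and are called members. The rule for members used the annotation alone and no read count, though it was set with earlier results of these data known.

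K562 is a cell line from chronic myeloid leukemia (CML) that depends on the Bcr-Abl1 kinase and resembles an immature erythroid cell. Libraries of 6 conditions, 3 each and labelled as biological replicates, were sequenced as PacBio long reads of nascent RNA from chromatin. CTRL and CTRLim are untreated cells, and CTRLim is the control of the imatinib libraries. KCl 45min received 110 mM KCl for 45 min (hyperosmotic shock), JTE 1h received 5 µM JTE-607 for 1 h, and IM 1h and IM 18h received 1 µM imatinib for 1 h or 18 h. Imatinib inhibits Bcr-Abl1, and JTE-607 inhibits CPSF73, the endonuclease that cuts nascent RNA at the poly(A) site. All groups are cultures of one cell line.

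At the end of a gene, the cleavage and polyadenylation complex recognizes a hexamer, usually AAUAAA, and cuts the nascent RNA shortly after it, while Pol II travels on and is released. When the cut is delayed or missed, the RNA grows beyond the gene end, which is called readthrough. Where the next gene lies close by on the same strand, such RNA runs into it and may be spliced to its exons, which gives a chimeric RNA. GENCODE lists many of these products as conjoined genes, with both names joined by a hyphen or with an identifier only. Neighbouring genes on one strand may also overlap, or one may lie within an intron of the other, so that RNA of the second gene covers the end of the first.

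The last bases of the counted transcripts show how unlike one another these ends are. Below are the last 30 bases of 7 members on GRCh38, 5′ to 3′ on the strand of the gene, read from the reference genome. Capitals mark AATAAA, the DNA form of the poly(A) hexamer. The first 3 ends lie wholly within exons of the neighbour, and the other 4 hold a hexamer.
ACADM, into RABGGTB, chr1:75787546-75787575, plus strand: tgttattggagaaacatgcagattatatcg
RBM6, into RBM5, chr3:50100016-50100045, plus strand: agcctgcggatgtgaggctgatgaagagga
ENSG00000251184, into NUP188, chr9:128956992-128957021, plus strand: acctgcaagaggactacaggggtactcggg
EID3, inside TXNRD1, chr12:104305176-104305205, plus strand: tattAATAAAaacaagttttggataccaaa
ERV3-1, into ZNF117, chr7:64990356-64990385, minus strand: cacctaAATAAAaccttcctgttgcaccca
CCT6A, before SUMF2, chr7:56063960-56063989, plus strand: gttgtgcAATAAAtgttaagttgaaacctc
PARVB, before PARVG, chr22:44172910-44172939, plus strand: ttatttattccAATAAAgacctcgtgagca

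Either AATAAA or ATTAAA was found in the last 50 nt of 522 members (56.1%), against 9458 of the 12704 transcripts that could be matched to GENCODE (74.4%). The share differed with how much of the last exon lies inside exons of the neighbour, counting every same-strand protein-coding gene at the position. Of 419 members that share none of it, 69.7% held a hexamer. Of 251 members that share a part, 61.8% did, and of 261 members whose last exon lies wholly inside exons of the neighbour, 28.7% did. For comparison, 69.6% of the 1968 gene ends that lead into a protein-coding gene on the opposite strand and 78.2% of the 5041 ends without a protein-coding gene in the next 10000 nt held one. A match to these letters is a description of the sequence and does not show where cleavage takes place.

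**Figure D1:**
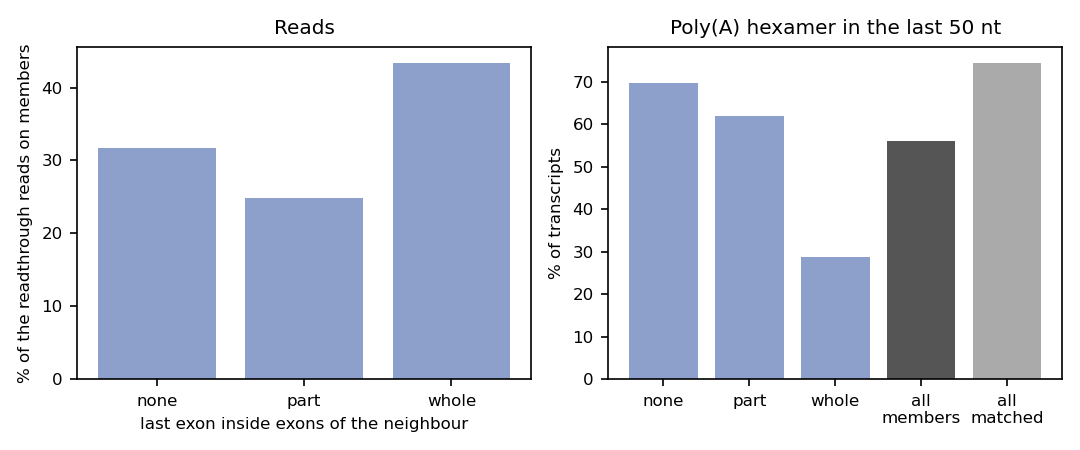
Members were split by how much of the last exon lies inside exons of the neighbour (none, part or whole). The left bars give the percent of the 53330 readthrough reads on members, and the right bars the percent of transcripts with AATAAA or ATTAAA in the last 50 nt, which is 28.7% for ends wholly inside neighbour exons and 74.4% for all matched transcripts. Of the 261 members in the whole class, 178 are themselves conjoined genes.

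By position, only 19 members end before the neighbour begins, so that a short gap separates the genes, and they carried 186 of the 53330 readthrough reads on members (0.349%). A further 400 members overlap the start of the neighbour (32160 reads, 60.3%), and 94 lie inside a longer neighbour that also starts upstream of them (8903 reads, 16.7%). For 418 members the only gene at the position is a conjoined gene (12081 reads, 22.7%). In all but the gap class, unspliced RNA of the annotated neighbour also covers the end of the last exon and the position 100 nt beyond it, so that RNA that started at the member and RNA that started at the neighbour cannot be told apart by these counts. The authors gave a read that met the last exons of several genes to the gene with the greatest overlap.

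Sharing of exons makes this closest for the 261 members whose last exon lies wholly inside neighbour exons, and these held 23147 reads (43.4%). Another 13298 reads (24.9%) fell on members that share a part, and 16885 (31.7%) on members that share none. Of the members, 210 are themselves conjoined genes, with 16141 reads. In 60 members (3209 reads) the gene extends more than 100 nt beyond the counted transcript, so that the position still lies inside the gene, as in SRSF1, whose annotated gene end lies 2441 nt further. In 139 members (9438 reads) the counted transcript ends more than 1000 nt beyond the end of the canonical transcript.

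**Figure D2:**
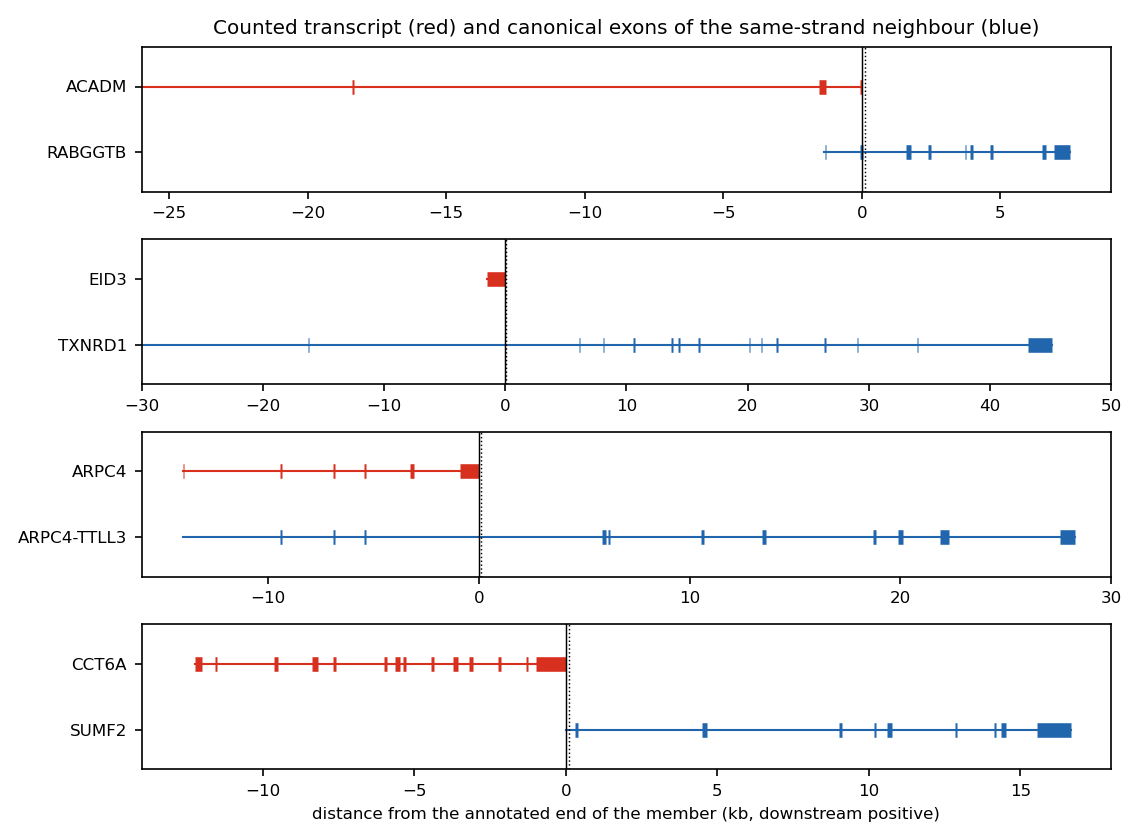
One member of each kind of position is drawn (red, counted transcript) above the canonical exons of its neighbour (blue), with distance from the annotated end of the member in kb. Thick blocks are exons, thin blue lines the whole neighbour gene, the solid line is the annotated end and the dotted line lies 100 nt beyond. The ACADM end lies on an exon of RABGGTB, EID3 lies inside an intron of TXNRD1, ARPC4 ends inside an intron of the conjoined gene ARPC4-TTLL3, and CCT6A ends 12 nt before SUMF2 begins.

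The libraries held between 229855 and 1349556 reads after the filters of the authors, which is the library total used for every level here. Between 8422 and 57982 of them per library were readthrough reads. CTRLim and both imatinib groups form a library set in which 84.34% to 91.59% of raw reads mapped. In the set of CTRL, KCl 45min and JTE 1h, 40.54% to 44.09% mapped, and each treatment was compared within its own set. JTE 1h replicate 1 stood apart, with 3.063% readthrough reads against 5.401% and 5.053% in replicates 2 and 3. The 3 IM 1h libraries differed little beyond sampling noise (chi-square test over transcripts, p = 0.428 for replicates 1 and 2, 0.227 for 1 and 3 and 0.00962 for 2 and 3), and neither did CTRLim replicates 2 and 3 (p = 0.0945). These may hold fewer independent samples than 3, so levels are given library by library and calls are also given with such libraries counted as 1 sample. As a check of the label, 11 of 12 erythroid and K562 genes were in the table and had 7919 readthrough reads, while 10 genes of other tissues had 2 reads in all.

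Members carried 11.9% of the 447434 readthrough reads. A member had a median of 11 reads over all 18 libraries, against 10 for all transcripts. While 280 members had at least 30 reads, 134 had none in any library. The 10 members of highest level held 17398 of the reads on members (32.6%).

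Levels are readthrough reads per 1000000 library reads (RPM), where 1 read is 1 molecule by its molecular identifier. They mix how much a gene is transcribed with how often its RNA is left uncut, and in cultures fewer cells with a transcript and less RNA per cell cannot be told apart.

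ACADM had the highest mean level, at 302 RPM over the 6 conditions. The gene encodes medium-chain acyl-CoA dehydrogenase, an enzyme of mitochondrial fatty acid oxidation, and lies on chromosome 1 from 75724431 to 75787575. Its counted transcript is annotated for nonsense-mediated decay and ends 23896 nt beyond the canonical end, with a last exon of 79 nt that lies entirely inside an exon of RABGGTB, a subunit of the enzyme that attaches lipids to Rab proteins. CTRL libraries had 177, 353 and 213 RPM, KCl 45min 317, 331 and 134, and JTE 1h 200, 313 and 143. CTRLim libraries had 513, 433 and 408 RPM, IM 1h 416, 450 and 405, and IM 18h 220, 201 and 203. All CTRLim and IM 1h libraries lay above every CTRL and IM 18h library. RABGGTB has a row of its own with lower levels, at 38.7 RPM or less in every library.

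Next came a pair of transcripts at the beta-globin locus on chromosome 11. ENSG00000239920, a conjoined gene from 5254392 to 5678434 on the minus strand, had a mean of 276 RPM, and HBE1, which encodes the embryonic epsilon-globin chain, had 194 RPM. Both end inside HBG2, the fetal gamma-globin gene, which GENCODE draws from 5253188 to 5505605 because of long upstream transcripts. The last exon of ENSG00000239920 (123 nt) lies wholly inside exons of HBG2, and that of HBE1 (253 nt) shares 228 nt with them. HBG2 has no row of its own in the table, and globin genes are near copies of one another, so the gene of origin of these reads is uncertain. ENSG00000239920 had 189, 341 and 275 RPM in CTRL and 370, 226 and 191 in CTRLim, ranges that overlap. HBE1 had 80.4, 82.8 and 46.4 RPM in CTRL and 344, 181 and 252 in CTRLim, so that the untreated groups of the 2 library sets did not overlap.

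ENSG00000251184, a conjoined gene on chromosome 9 that ends inside NUP188, a component of the nuclear pore, had a mean of 191 RPM. Its CTRL libraries had 288, 258 and 286 RPM and its IM 18h libraries 150, 132 and 117. CTRLim had 231, 161 and 175 RPM, below CTRL and above IM 18h, and IM 1h (175, 157 and 137) overlapped IM 18h. The NUP188 row itself never exceeded 6 reads in a library. ENSG00000256206, another conjoined gene, runs into COPB1, a subunit of the COPI vesicle coat, and had 85.1 RPM on average. RBM6 (74.0 RPM), which encodes an RNA-binding protein, ends on a 64 nt exon wholly inside an exon of RBM5, the related splicing regulator that follows it, 22796 nt beyond the canonical end of RBM6. For these members of highest level, the row of the neighbour held few readthrough reads, and RBM5 had at most 6 in any library. Those rows do not show how much RNA of the neighbour lies at the end of the member.

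EID3, TMPPE and POTEE are the members of highest level inside an intron or other unshared part of a larger gene. EID3, a component of the SMC5/6 complex made from a single exon inside TXNRD1 (thioredoxin reductase), had 111, 124 and 101 RPM in CTRL and 60.9, 72.2 and 46.7 in CTRLim, again without overlap between the untreated groups. JTE 1h libraries had 187, 128 and 136 RPM, all above the CTRL libraries, though the difference did not pass the test below. TMPPE (mean 83.0 RPM) lies inside GLB1, the gene of lysosomal beta-galactosidase, and its groups overlapped. POTEE (81.5 RPM), inside PLEKHB2, belongs to a family of near-identical genes, so that its reads may belong to a copy. ARPC4, a subunit of the Arp2/3 complex that nucleates branched actin, was the leading member of the conjoined class at 74.7 RPM. It was followed in this class by SRSF1 (52.6 RPM), an SR splicing factor whose groups overlapped, with 26.1, 51.8 and 38.6 RPM in CTRLim and 30.9, 42.3 and 58.5 in IM 18h.

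**Figure D3:**
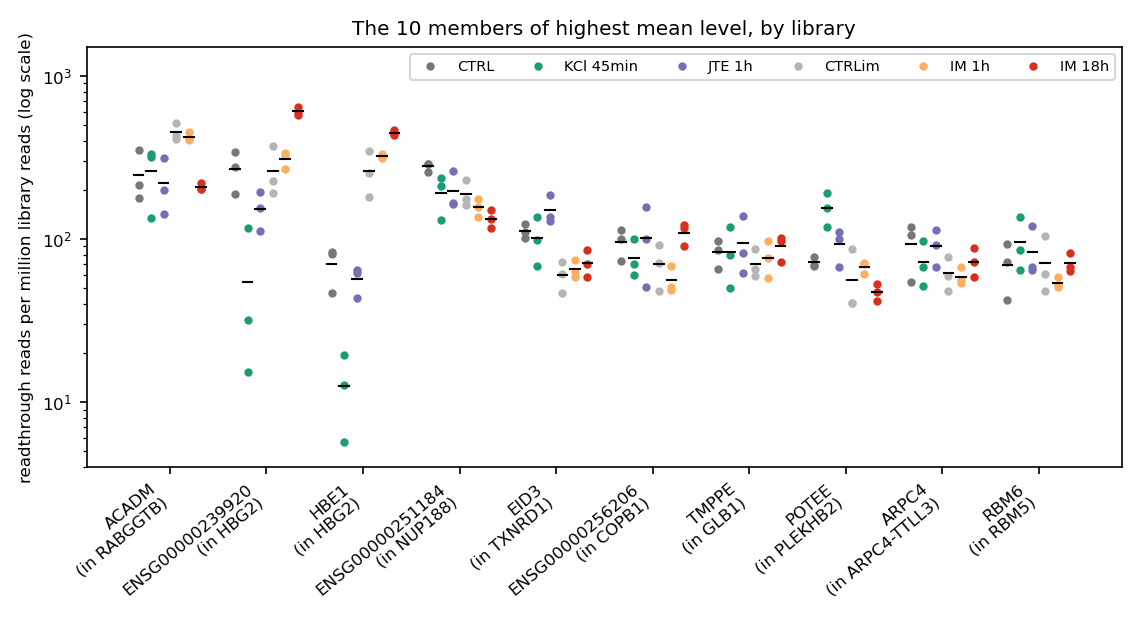
Readthrough reads per 1000000 library reads (log scale) are shown for the 10 members of highest mean level, with the neighbour in brackets. Each point is a library, the 6 colours are the conditions and the bar is the mean of 3 libraries. ENSG00000239920 and HBE1 have their highest mean in IM 18h and their lowest in KCl 45min, while ACADM in IM 18h (201 to 220 RPM) lies below CTRLim (408 to 513) and within CTRL (177 to 353).

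Summed over all members, the level was 4674, 4724 and 4142 RPM in CTRL, 4563, 3715 and 3007 in KCl 45min and 5469, 4875 and 5118 in JTE 1h. It was 4829, 4085 and 4158 RPM in CTRLim, 4555, 4513 and 4525 in IM 1h and 4686, 4821 and 4680 in IM 18h. JTE 1h lay above every CTRL library and IM 18h above every IM 1h library, while the other comparisons overlapped. Within each of the 3 pairs of the same replicate number, KCl 45min was lower than CTRL. Without the 5 members that end inside HBG2 the order of the imatinib times turned, with 3865, 3812 and 3858 RPM in IM 1h and 3544, 3728 and 3492 in IM 18h. No test was made of these sums, since the members were chosen as a list.

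As a share of all readthrough reads, members made up 14%, 14.2% and 11.7% in CTRL, 18.6%, 13.8% and 14% in KCl 45min and 17.9%, 9.03% and 10.1% in JTE 1h, where replicate 1 was the high library. By the read lengths that the study lists, JTE 1h replicate 1 and KCl 45min replicate 1 had the shortest median reads of these groups. CTRL replicates 1 and 2 came next. Whether the share follows read length was not tested. The mean share was higher in KCl 45min (15.5%) than in CTRL (13.3%), opposite to the summed level, and the libraries overlapped. Members made up between 10.8% and 10.9% in CTRLim, between 10.3% and 10.4% in IM 1h and between 12.7% and 12.9% in IM 18h. The 5 members that end inside HBG2 alone had 3.11%, 2.92% and 3.22% of readthrough reads in IM 18h against 1.72%, 1.14% and 1.21% in CTRLim. Without these 5, members made up between 9.46% and 9.97% in IM 18h and between 9.16% and 9.63% in CTRLim, and the ranges overlapped. In IM 1h they made up between 8.66% and 8.84%, below every IM 18h library.

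**Figure D4:**
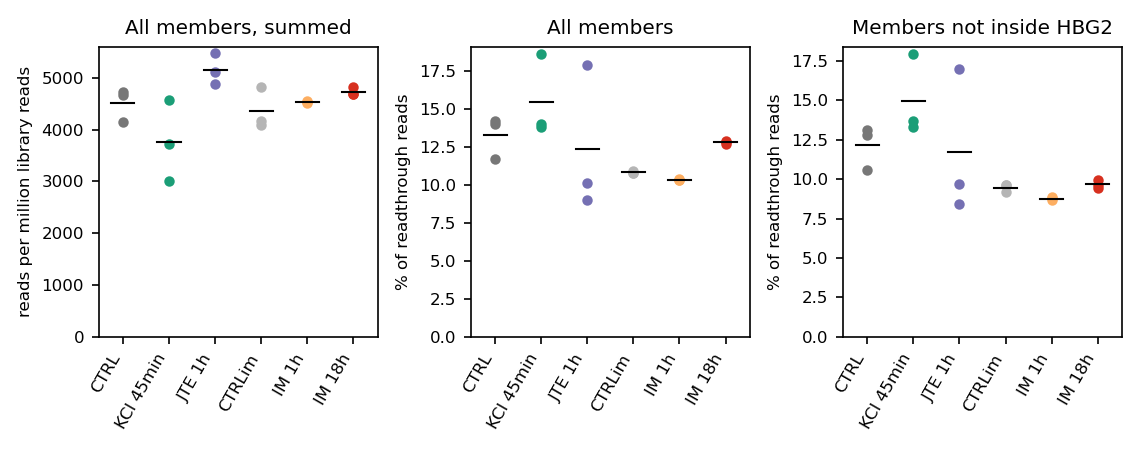
Each point is a library and each bar the mean of 3 libraries. The left panel sums members as reads per 1000000 library reads, the middle panel gives their percent of all readthrough reads, and the right panel leaves out the 5 members inside HBG2. IM 18h stands at 12.7% to 12.9% in the middle panel and at 9.46% to 9.97% in the right panel.

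Hyperosmotic shock was compared with CTRL to see which same-strand ends gained or lost readthrough reads. Of 931 members, 72 had the 30 reads needed for the test, and 6 changed (8.33% of those tested), 1 higher and 5 lower. Over all 378 transcripts tested, 25.1% changed, 4.23% higher and 20.9% lower. The median log2 fold change was -0.17 for members and -0.39 for all transcripts. With TMM scaling, which takes readthrough reads as the scale, the medians were 0.26 and 0.05, and 4 members changed, 2 higher and 2 lower, of which 3 were among the 6. These were 5.56% of members tested, against 19.8% of all transcripts with this scaling.

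Called members were named only where the groups of libraries do not overlap, so a separation stated for them follows from that rule. Both globin transcripts fell. HBE1 had 29, 34 and 12 reads in CTRL and 8, 4 and 6 in the KCl libraries, which is 80.4, 82.8 and 46.4 RPM against 19.5, 12.7 and 5.68. No KCl library reached the lowest CTRL library, and the log2 fold change was -2.61 (SE 0.555, adjusted p = 0.000231, edgeR quasi-likelihood test with Benjamini-Hochberg adjustment). ENSG00000239920 had 189, 341 and 275 RPM in CTRL and 117, 31.9 and 15.2 after KCl, with a log2 fold change of -2.34 (SE 0.561, edgeR adjusted p = 0.0012). Without KCl replicate 2 its edgeR adjusted p was 0.07.

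RTL10, a gene derived from a retrotransposon inside GNB1L on chromosome 22, had 33.3, 19.5 and 15.5 RPM in CTRL and 4.87, 0 and 4.74 after KCl (log2 fold change -2.52, SE 0.701, edgeR adjusted p = 0.00488). PTPMT1, a mitochondrial phosphatase of cardiolipin synthesis inside NDUFS3, a complex I subunit, had 19.4, 31.7 and 11.6 RPM in CTRL and 9.74, 3.19 and 2.84 after KCl. Its log2 fold change was -2.15 (SE 0.689, edgeR adjusted p = 0.016). GEMIN7 encodes a subunit of the SMN complex that assembles small nuclear ribonucleoproteins. Of its last exon, 103 nt lie inside exons of the same-strand genes at the position, MARK4 and PPP1R37. GEMIN7 fell from 25, 21.9 and 30.9 RPM to 2.44, 15.9 and 5.68 (log2 fold change -1.81, SE 0.646, edgeR adjusted p = 0.0284). RTL10, PTPMT1 and GEMIN7 were no longer called after TMM scaling. PTPMT1 was not called without KCl replicate 2, and GEMIN7 was not called without KCl replicate 1 or 3 or CTRL replicate 3.

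The 1 member called higher was ENSG00000257390, a conjoined gene whose last exon of 279 nt lies inside exons of SARNP, an mRNA export factor. It had 2, 2 and 1 reads in CTRL and 15, 9 and 10 after KCl, which is 5.54, 4.87 and 3.87 RPM against 36.5, 28.7 and 9.47. Per library read this was 3.93 times as much, with an exact 95% interval from 1.53 to 12.9 that covers counting error only. The log2 fold change was 2.17 (SE 0.738, edgeR adjusted p = 0.0232), and the call was lost when any CTRL library or KCl replicate 2 was left out. The SARNP row had 4.76 RPM on average in CTRL and 6.14 after KCl. POTEE was not among these calls but was called higher with TMM scaling (log2 fold change 1.54, SE 0.371, edgeR adjusted p = 0.0057). It had 77.6, 68.2 and 69.6 RPM in CTRL and 190, 118 and 154 after KCl, without overlap.

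JTE-607 was compared with CTRL to see how these ends respond when CPSF73 is inhibited. Of 109 members tested, none changed by edgeR or by DESeq2, and 4 had an unadjusted p under 0.05. Of all 969 transcripts tested, 0.103% changed. The median log2 fold change was 0.34 for members and 0.49 for all transcripts, with 82 members above 0 and 27 below. After TMM scaling these medians were -0.03 and 0.09, so the sign of the member median depends on the scale. ENSG00000257390, which rose after KCl, had 23.9, 23.3 and 16.6 RPM in JTE 1h, all above its CTRL libraries, with an edgeR adjusted p of 0.226 and a log2 fold change of 2.06 (SE 0.719). Without JTE 1h replicate 1, 2 members changed, SRSF6 (log2 fold change 1.75) and SELENOH (1.87), named here after their values were seen. The share over all transcripts is not given for this setting. SRSF6 encodes a splicing factor of the SR family.

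After 1 h of imatinib, none of 94 members tested changed against CTRLim by edgeR or by DESeq2, and 14 had an unadjusted p under 0.05. Of all 988 transcripts tested, 1.52% changed, 0.202% higher and 1.32% lower. The median log2 fold change was 0.09 for members and 0.19 for all transcripts, and -0.09 and 0.00 after TMM scaling. OR51I1, an olfactory receptor gene inside HBG2, had 34.2, 34.9 and 37.4 RPM in IM 1h and 30.5, 16.7 and 14.2 in CTRLim. The groups did not overlap, and the log2 fold change was 0.95 (SE 0.352, edgeR adjusted p = 0.208). CTRLim replicate 1 had the highest level inside HBG2 of its group (761.3 RPM against 431.4 and 467.2), and without it 3 members were called, HBE1 (log2 fold change 0.57), ENSG00000239920 (0.56) and PABIR1 (2.30). The share over all transcripts without that library is not given. With the IM 1h libraries counted as 1 sample, or CTRLim replicates 2 and 3 counted as 1, no member was called.

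After 18 h of imatinib, 16 of 132 members tested changed against CTRLim (12.1%), 12 higher and 4 lower, and of all 1386 transcripts 14.1% changed, 5.19% higher and 8.95% lower. The median log2 fold change was 0.16 for members and -0.01 for all transcripts, and 0.26 and 0.09 after TMM scaling. The 531 tested ends without a protein-coding gene close beyond them, compared above for hexamers, had the same medians as members (0.16 and 0.26). For the 200 tested ends that lead into a protein-coding gene on the opposite strand, the medians were 0.01 and 0.11. A higher median than that of all transcripts was therefore not particular to members. With CTRLim replicates 2 and 3 counted as 1 sample, 11 of the 16 were called. DESeq2 called 8. All 5 members inside HBG2 were among the 12 that rose.

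ENSG00000239920 rose from 370, 226 and 191 RPM in CTRLim to 601, 576 and 640 in IM 18h, a log2 fold change of 1.25 (SE 0.218, edgeR adjusted p = 4.73e-05). HBE1 rose from 344, 181 and 252 RPM to 437, 433 and 466 (log2 fold change 0.82, SE 0.215, edgeR adjusted p = 0.00664), and was not called with CTRLim replicates 2 and 3 as 1 sample (edgeR adjusted p = 0.0699), without either of them, or in one fit of all 18 libraries. Every IM 18h library lay above every CTRLim library for both.

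The 3 remaining members inside HBG2 are olfactory receptor genes, which are normally expressed in sensory neurons of the nose and lie next to the globin genes. OR51I1 had 30.5, 16.7 and 14.2 RPM in CTRLim and 61.7, 48.5 and 48.9 in IM 18h (log2 fold change 1.5, SE 0.341, edgeR adjusted p = 0.00141), and was not called against CTRL or all 6 untreated libraries. The annotated gene of OR51B5 extends 39142 nt beyond the counted transcript. OR51B5 had 3, 1 and 2 reads in CTRLim and 26, 22 and 24 in IM 18h, or 4.25 times as much per library read (exact 95% interval 1.86 to 12, counting error only), with an edgeR adjusted p of 0.00729 that was lost without CTRLim replicate 2 or 3. OR51B4, chosen after its values were seen, rose from a mean of 5.33 RPM to 16.2 (log2 fold change 1.53, SE 0.512, edgeR adjusted p = 0.0352), and was not called with CTRLim replicates 2 and 3 as 1 sample or without CTRLim replicate 1. None of these 3 last exons shares exon sequence with HBG2.

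ERV3-1, the envelope gene of an endogenous retrovirus that runs into the zinc finger gene ZNF117 on chromosome 7, had 0, 10 and 3 reads in CTRLim and 52, 82 and 65 in IM 18h. This is 0, 18.5 and 6.09 RPM against 55.3, 64.2 and 48.2, with a log2 fold change of 2.45 (SE 0.408, edgeR adjusted p = 2.23e-05). CTRL libraries had 52.7, 17.1 and 34.8 RPM, and against them the difference was not called (log2 fold change 0.70). ZNF117 itself had 4 readthrough reads in IM 18h and none in CTRLim.

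TLCD4, a gene for a membrane protein of the TLC domain family whose end is spanned by the conjoined gene TLCD4-RWDD3, had no read in any CTRLim library and 13, 14 and 14 reads in IM 18h. Against an allowance of 3 reads over the CTRLim group the ratio per library read was 4.84, and the exact 95% interval began at 3.76 (counting error only, edgeR adjusted p = 0.000648). TLCD4 had at most 1 read in any CTRL, KCl 45min, JTE 1h or IM 1h library. TLCD4-RWDD3 had 6, 2 and 0 reads in IM 18h and 0, 1 and 0 in CTRLim.

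Among the 4 members that fell, ACADM has the highest level of all members. ACADM fell from 513, 433 and 408 RPM to 220, 201 and 203, without overlap (log2 fold change -1.11, SE 0.203, edgeR adjusted p = 8.84e-05). The RABGGTB row had a log2 fold change of -0.36 (SE 0.398) that was not called. ENSG00000257065, a conjoined gene whose last exon of 132 nt lies inside exons of LTV1, a factor of small ribosomal subunit assembly, fell from 65.3, 77.8 and 52.8 RPM to 20.2, 27.4 and 20.7 (log2 fold change -1.51, SE 0.291, edgeR adjusted p = 0.000188). Against CTRL in place of CTRLim, ACADM was not called (log2 fold change -0.26), but there treatment and library set cannot be told apart.

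Further called members were named after their values were seen. PABIR1 in PIP5K1B (log2 fold change 2.08), CHML in OPN3 (2.03), MFAP3 in GALNT10 (1.94) and SCAF8 in TIAM2 (1.80) rose, though the libraries of PABIR1 and CHML overlapped between groups. CHML and TIMM23B were not called with CTRLim replicates 2 and 3 as 1 sample. TMA7B in GRAP2 fell (log2 fold change -1.30), as did TIMM23B (-1.12), whose end is spanned by TIMM23B-AGAP6. TMA7B and TIMM23B have near-identical copies elsewhere, so that their reads are uncertain.

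Between 1 h and 18 h of imatinib, 20 of 147 members tested changed (13.6%), 11 higher and 9 lower at 18 h, while of all 1720 transcripts 18.3% changed, 4.19% higher and 14.1% lower. The median log2 fold change was -0.01 for members and -0.30 for all transcripts. TMM scaling moved these to 0.28 and -0.01, and 22 members were then called (15%), 18 higher and 4 lower, of which 15 were among the 20. Of all 1720 transcripts, 12.2% were then called, 114 higher and 96 lower, so the order of the 2 shares depends on the scale. With the IM 1h libraries counted as 1 sample, 11 of the 20 were called. This comparison shares the IM 18h libraries with the one above.

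ACADM had 416, 450 and 405 RPM at 1 h and 220, 201 and 203 at 18 h (log2 fold change -1.03, SE 0.109, edgeR adjusted p = 9.22e-14). In one edgeR fit of all 18 libraries ACADM was not called (adjusted p = 0.08). At 1 h its libraries overlapped those of CTRLim. RABGGTB was lower as well, at 29.7, 36.6 and 23.7 RPM at 1 h and 12.8, 14.9 and 18.5 at 18 h (log2 fold change -0.91, SE 0.317, edgeR adjusted p = 0.031). ENSG00000261717, a conjoined gene that ends on an exon of CFDP1, had 19 reads in each IM 1h library and 5, 12 and 11 at 18 h. Its level fell from 28.2, 33.1 and 23.7 RPM to 5.32, 9.39 and 8.15 (log2 fold change -1.82, SE 0.36, edgeR adjusted p = 5.26e-05), while CTRLim had 13.1, 16.7 and 12.2 RPM.

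ENSG00000239920 rose from 325, 337 and 270 RPM at 1 h to 601, 576 and 640 at 18 h (log2 fold change 0.97, SE 0.0992, edgeR adjusted p = 1.73e-14). It was not called in one edgeR fit of all 18 libraries (adjusted p = 0.0978). HBE1 rose from 312, 316 and 331 RPM to 437, 433 and 466 (log2 fold change 0.48, SE 0.102, edgeR adjusted p = 0.000189). HBE1 was not called by DESeq2 with library totals (adjusted p = 0.0648) or in one edgeR fit of all 18 libraries (adjusted p = 0.468). ENSG00000256206 rose from 68.3, 50.6 and 48.6 RPM to 122, 90.0 and 116 (log2 fold change 0.96, SE 0.179, edgeR adjusted p = 1.6e-05), but CTRLim libraries had 91.4, 48.1 and 71.1 RPM, and replicate 1 of these lay above an IM 18h library. ENSG00000256206 was also not called in one edgeR fit of all 18 libraries (adjusted p = 0.0871).

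ERV3-1 rose from 28.2, 10.5 and 22.4 RPM at 1 h to 55.3, 64.2 and 48.2 at 18 h (log2 fold change 1.41, SE 0.257, edgeR adjusted p = 1.02e-05). TLCD4 had 0, 1 and 0 reads at 1 h and 13, 14 and 14 at 18 h, a ratio of 23.6 per library read with an exact 95% interval from 4 to 953 (counting error only, edgeR adjusted p = 3.69e-05). TSGA13, a testis gene that overlaps the start of COPG2 by 101 nt, had 32.7, 31.4 and 26.2 RPM at 1 h and 70.2, 54.0 and 48.9 at 18 h (log2 fold change 0.93, SE 0.232, edgeR adjusted p = 0.00175). TSGA13 was not called in one edgeR fit of all 18 libraries (adjusted p = 0.11). The groups of these 3 genes do not overlap, as the rule for naming required.

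The 12 other called members include GEMIN7 and ENSG00000257065, which fell by 1.20 and 1.01 on the log2 scale, and OR51B5, which rose by 1.57. Others were named after their values were seen. PPT2 (log2 fold change 1.04), ENSG00000283228 (1.00) and HUS1B (0.61) were higher at 18 h. LDHB (-1.41), a subunit of lactate dehydrogenase, HOXB4 (-1.21), a homeobox transcription factor, TMA7B (-1.03), TIMM23B (-0.91) and DRG1 (-0.66) were lower.

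Among the upstream genes of RNA chimeras for which the study lists primers, RBM14, ARPC4, COX6A1 and HOXB9 are members. RBM14, which encodes a paraspeckle protein, lies on chromosome 11 from 66616626 to 66629934, and its end is spanned by the conjoined gene RBM14-RBM4, which joins it to the splicing regulator RBM4. RBM14 had 47.9, 46.3 and 38.6 RPM in CTRLim, 44.6, 40.1 and 32.4 in IM 1h and 24.5, 39.1 and 39.3 in IM 18h, with overlapping groups. At 18 h against CTRLim its log2 fold change was -0.33 (edgeR adjusted p = 0.505), and at 1 h it was -0.17 (edgeR adjusted p = 0.81). The conjoined gene RBM14-RBM4, itself a member that runs on into RBM4, had 39.2, 31.5 and 30.5 RPM in CTRLim and 35.1, 34.4 and 25.2 in IM 18h (log2 fold change -0.06, SE 0.323, edgeR adjusted p = 0.929).

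ARPC4 had 47.9, 59.3 and 77.2 RPM in CTRLim, 66.9, 55.8 and 53.6 in IM 1h and 58.5, 72.0 and 87.4 in IM 18h. The groups overlapped, and its log2 fold change at 18 h was 0.21 against CTRLim (edgeR adjusted p = 0.652) and 0.32 against IM 1h (edgeR adjusted p = 0.245). Against IM 1h it was called with TMM scaling (log2 fold change 0.61, edgeR adjusted p = 0.0201) and with readthrough totals (0.57, edgeR adjusted p = 0.0346). COX6A1, a subunit of cytochrome c oxidase, had 28 reads in all and was too sparse for a test. It had no read in CTRLim, 1, 1 and 5 in IM 1h and 2 in each IM 18h library. HOXB9, a homeobox transcription factor inside HOXB7, was added to these genes after the tables were seen. It had 63 reads in all and was tested between the imatinib times, where its groups overlapped (log2 fold change -0.02, SE 0.568, edgeR adjusted p = 0.989). CTSC and DMC1 are not members.

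The 19 members with a gap before the neighbour are the ends at which a readthrough read leaves one annotated gene and enters the next. The gap of 3 of them is shown here because these are the ones of highest level, 5′ to 3′ on the plus strand of GRCh38 and in lower case throughout.
CCT6A to SUMF2, chr7:56063990-56064001: ctttctgttctt
OGFOD2 to ARL6IP4, chr12:122980044-122980059: ccctttgtgtttgcgg
PARVB to PARVG, chr22:44172940-44172955: tgggcctgtccaccgt

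CCT6A encodes a subunit of the CCT chaperonin that folds actin and tubulin. It had 68 readthrough reads in all, with 5, 4 and 1 in CTRL, 1, 0 and 0 in KCl 45min and 5, 4 and 20 in JTE 1h. CTRLim libraries had 1 read each, IM 1h libraries 4, 5 and 5, and IM 18h libraries 3, 3 and 5. In RPM all IM 1h libraries (5.94, 8.72 and 6.23) lay above CTRLim (4.35, 1.85 and 2.03), but the reads were too few for a test. The test against CTRL was possible for JTE 1h and did not pass (log2 fold change 0.39, SE 0.731, edgeR adjusted p = 0.859).

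OGFOD2 had 30 reads and none in KCl 45min, and PARVB, an adaptor of integrin adhesions that is followed by its paralog PARVG, had 21 reads and none in CTRL. Summed over the 19 members, the level lay between 11.6 and 36.04 RPM in CTRL, 6.631 and 17.05 in KCl 45min and 19.59 and 31.37 in JTE 1h. It lay between 12.19 and 13.05 RPM in CTRLim, 11.89 and 18.69 in IM 1h and 8.511 and 13.31 in IM 18h. The ranges overlap in each of the 5 comparisons, and within each of the 3 pairs of the same replicate number KCl 45min was lower than CTRL.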

How the data were processed

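Nascent RNA from K562 chromatin was sequenced as PacBio long reads in 18 libraries, 3 for each of 6 conditions. The authors removed adapters with cutadapt, mapped reads with minimap2 to GRCh38.p14, collapsed duplicates by molecular identifier, and discarded splicing intermediates, polyadenylated RNA and multiply mapped reads. Each gene was represented by its transcript of most distal end, and a read meeting the last exon was readthrough if its 3′ end lay more than 100 nt further. The deposited values are raw counts of these reads per transcript, neither normalized nor pooled. No ratio to gene body reads was computed.

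Transcripts were matched by identifier to GENCODE 44, which gave positions for 12704 of 13051. Library totals were the reads listed in the study after all filters. Tests used the quasi-likelihood functions of edgeR 4.0.16 in R 4.3.3 within the 6 libraries of a comparison. All transcripts with at least 30 reads over these libraries were fitted together, p-values were adjusted over all of them (Benjamini-Hochberg), and an adjusted p under 0.05 was a call. DESeq2 1.42.0 was an alternative. On simulated counts for IM 18h against CTRLim (1386 transcripts, 200 of them shifted by 2 on the log2 scale), edgeR called 155 changed and 6 unchanged transcripts, and DESeq2 called 110 and 1. Where a group had no read, a ratio was computed against 3 reads over the group. Intervals cover counting error only.

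Named members are the 10 of highest mean level, up to 8 called members per comparison with the smallest adjusted p and no overlap between groups, 6 of the upstream genes of RNA chimeras with primers in the study (HOXB9 was added later), and the 3 of highest level in each class of position. The split by shared exon sequence was added after the table was seen. The values of 1 member called in both comparisons of IM 18h are not reported here, in the plot of called members either, though the counts include it. The members and lists were chosen with earlier results of these data known.

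Replicate numbers were checked for pairing by the correlation of deviations from the group means over 166 transcripts. It was between 0.163 and 0.415 for KCl 45min or JTE 1h with CTRL. The correlation was not computed for libraries of different numbers, so these values alone do not show that the numbers pair the samples. The main tests did not use the replicate number. Alternatives changed the library total, the minimum of reads, the tool, the libraries and the rule for members. Python 3.11.15, pandas 2.3.3 and numpy 2.4.6 were used.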

Additional observations from a re-analysis of the deposited data

Results flagged for a closer look

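Flagged were named members whose response to imatinib differed between 1 h and 18 h, by the edgeR quasi-likelihood test of IM 18h against IM 1h on 3 libraries each. At 18 h, TLCD4 was higher by a fitted log2 fold change of 4.23, which depends on the prior count because IM 1h held 1 read. OR51B5 was higher by 1.57, ERV3-1 by 1.41, ENSG00000239920 by 0.97, ENSG00000256206 by 0.96, TSGA13 by 0.93 and HBE1 by 0.48 on the log2 scale. Lower at 18 h were ENSG00000261717 (log2 fold change -1.82), GEMIN7 (-1.20), ACADM (-1.03) and ENSG00000257065 (-1.01). In one edgeR fit of all 18 libraries, ENSG00000239920, ENSG00000256206, TSGA13, HBE1 and ACADM were not called. GEMIN7 had 32.7, 33.1 and 29.9 RPM at 1 h and 17.0, 10.2 and 14.8 at 18 h, with 26.1, 22.2 and 14.2 in CTRLim. Groups of 3 libraries are too small for the search for outlying samples.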

How the results depend on the processing

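Leaving out 1 library gave 2 to 3 called members for KCl 45min, 0 to 2 for JTE 1h, 0 to 3 for IM 1h against CTRLim, 8 to 17 for IM 18h against CTRLim and 10 to 17 for IM 18h against IM 1h. DESeq2 with library totals called 3 for KCl 45min, 8 for IM 18h against CTRLim and 8 against IM 1h, and with its own size factors 8 and 10 in the last pair. A minimum of 10 reads gave 14 for KCl 45min, and a minimum of 1 read gave 9 for IM 18h against CTRLim and 12 against IM 1h. One fit of all 18 libraries gave 8 and 4. CTRL as the control of IM 1h gave 21, and IM 1h counted as 1 sample gave 11 for IM 18h against IM 1h. The causes were not tested.

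With total readthrough reads as the library total, the difference in summed member level became 816.7 for KCl 45min and -370.2 for JTE 1h, against -751.4 and 640.8 RPM with library reads, and so turned. It became -185.6 for IM 1h against CTRLim (main value 173.7), which did not keep its sign, 740.8 for IM 18h against CTRLim and 926.4 against IM 1h. With mapped reads the last pair was 701.3 and 453.4 RPM. Without the 10 members of highest level it was 68.76 and -67.51 RPM. IM 18h against IM 1h gave 126.4 at 1000 nt, 281.1 without members that only a conjoined gene spans and -144.9 RPM without members that are conjoined genes themselves.

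Uncalled log2 fold changes that turned were those of ARPC4 for IM 1h against CTRLim (-0.23 to 0.07 with 1 library left out) and for IM 18h against CTRL (-0.38) or all 6 untreated libraries (-0.10). RBM14 for IM 18h against IM 1h was 0.14 with TMM scaling, 0.14 with the size factors of DESeq2, 0.09 with readthrough totals and between -0.28 and 0.02 with 1 library left out.

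With the replicate number as a block, 7 members were called for KCl 45min and 0 for JTE 1h. No call of a named member changed in these comparisons. In the imatinib comparisons the correlations of same-numbered libraries lay between -0.11 and 0.156, and the block gave 0, 17 and 15 calls.

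Depth limited the tests to 72 to 147 of 931 members per comparison, and 280 had at least 30 reads over all libraries.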
